A study of Mus musculus with 9 samples.

Results

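Genes of iron storage, uptake, export, sensing and heme breakdown were followed in mouse oocytes that had been cryopreserved by either of 2 methods or left unfrozen. They were chosen by symbol, because 1 of the methods used particles that contain iron oxide: Fth1, Ftl1, Tfrc, Slc40a1, Slc11a2, Ncoa4, Ireb2, Aco1, Hmox1 and Pcbp1, 10 of the 26358 genes in the deposited table. All 10 are in the table, and 9 of them, all but Slc40a1, had enough reads to be tested. Ftl1, the gene of the ferritin light chain, was the 1 member whose level passed the test in any comparison, and it was higher in oocytes of the method with the particles than in fresh oocytes.

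Poly(A) RNA was sequenced in 9 libraries, 3 for each group. In cryopreservation-2, oocytes were loaded in a straw with 1 M trehalose, 17.5% EG and nanoparticles that the labels name PVA/Fe3O4/GO; Fe3O4 is an iron oxide. In cryopreservation-1, oocytes were loaded on a cryotop, a thin strip, with 0.5 M sucrose, 15% EG and 15% DMSO, and without nanoparticles in the label. Fresh oocytes were not frozen. Carrier, solutes and nanoparticles differ together between the methods, so an effect of the iron oxide cannot be told apart from the rest of the protocol. No source used here gives the strain, age or stage of the oocytes. Nothing in the labels says that libraries came from separate animals or pools, and the spread behind each p-value is that between these samples and may be technical.

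Cells keep iron in ferritin, a hollow shell built of a heavy chain (Fth1), which oxidises the metal, and a light chain (Ftl1), which helps it to settle in the core. Iron enters bound to transferrin through the transferrin receptor (Tfrc) and crosses the endosomal membrane through DMT1 (Slc11a2), and it leaves the cell through ferroportin (Slc40a1). When iron is scarce, the RNA-binding proteins encoded by Aco1 and Ireb2 hold on to iron-responsive elements: in a 5′ untranslated region (UTR) they block translation, as for both ferritin chains, and in the 3′ UTR of Tfrc they keep the mRNA from being degraded. Pcbp1 delivers iron to ferritin, Ncoa4 leads ferritin to the lysosome to be broken down, and Hmox1, heme oxygenase 1, releases iron from heme. Much of this control acts on translation, which an mRNA level does not show.

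The iron-responsive elements of the members are shown because they are the stretch of mRNA through which iron status is known to act on ferritin, ferroportin and the transferrin receptor. UTRs of the coding transcripts of GENCODE M21 (build GRCm38) were searched on the transcript strand for the loop CAGTGN, closed by 5 base pairs with G-T pairs allowed and preceded by a C. Each match is printed as 30 bases of mRNA sense, 5′ to 3′, with T for U and with the loop in capitals.
Fth1, 5′ UTR: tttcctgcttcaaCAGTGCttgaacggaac
Ftl1, 5′ UTR: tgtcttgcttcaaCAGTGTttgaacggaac
Slc40a1, 5′ UTR: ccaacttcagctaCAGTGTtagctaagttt
Tfrc, 3′ UTR, site 1: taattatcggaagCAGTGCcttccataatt
Tfrc, 3′ UTR, site 2: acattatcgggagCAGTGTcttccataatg
Tfrc, 3′ UTR, site 3: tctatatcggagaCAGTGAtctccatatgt
Tfrc, 3′ UTR, site 4: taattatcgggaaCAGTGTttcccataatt
The matches of the 2 ferritin genes share the same 5 base pairs. Matches were found in 31 of 20916 genes with a 5′ UTR (0.148%) and in 129 of 21045 genes with a 3′ UTR (0.613%). Only 1 gene had 3 or more matches in its 3′ UTR, and that gene is Tfrc. Slc11a2, Ncoa4, Ireb2, Aco1, Hmox1 and Pcbp1 had no match, which says only that these letters are not in the UTRs searched. An element that departs from the pattern would be missed, so a gene without a match may still have one. These are matches of letters, and no binding was measured.

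Total counts were 49337232 to 51369012 per library in cryopreservation-2, 64276885 to 80877288 in cryopreservation-1 and 73899130 to 80100460 in fresh oocytes. A count of 0 allows up to 3 counts, or between 0.0371 and 0.0608 CPM (counts relative to the library's total); such limits cover counting error only. Cryopreservation-2 replicate 1, cryopreservation-1 replicate 3 and fresh replicate 3 had the most genes at 0 counts in their groups (8667, 8421 and 9108, against 6351 to 7744 in the other 6 libraries). All 12 oocyte markers examined were in the table and took 1.10% to 2.02% of counts in cryopreservation-2, 1.20% to 1.82% in cryopreservation-1 and 1.28% to 1.95% in fresh oocytes. Macrophage and leukocyte markers, of cells rich in ferritin, took 0.000345% to 0.00152% of counts in cryopreservation-2, 0.000688% to 0.00157% in cryopreservation-1 and 0.000899% to 0.00126% in fresh oocytes. Erythroid markers took 0.000343% to 0.000545% in cryopreservation-2, 0.000238% to 0.000495% in cryopreservation-1 and 0.000405% to 0.000491% in fresh oocytes. The 7 cumulus and granulosa markers in the table took 0.00349% to 0.00757% in cryopreservation-2, 0.00556% to 0.00609% in cryopreservation-1 and 0.00602% to 0.00681% in fresh oocytes. The 6 stromal and endothelial ones took 0.00833% to 0.0178% in cryopreservation-2, 0.00895% to 0.0176% in cryopreservation-1 and 0.00980% to 0.0163% in fresh oocytes. The summed shares of these 4 somatic lists overlapped between cryopreservation-2 and fresh oocytes, and no marker in the table was at 0 in every library. These sums came mostly from a few genes read in every library. Among them were Cyp19a1 (1671 to 5264 counts), Pecam1 (3634 to 10767), C1qb (93 to 802), Cd68 (39 to 411) and Gata1 (140 to 351). The overlap of the sums therefore says little about markers with few counts. In bulk RNA, fewer cells of a type and less RNA per cell cannot be told apart.

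Single blood cell markers, picked out after their counts were seen, were nevertheless read in cryopreservation-2 and in no other library. The alpha globin genes Hba-a1 (19, 7 and 3 counts) and Hba-a2 (15, 11 and 6 counts) were read in all 3 cryopreservation-2 libraries and had 0 counts in each of the 3 cryopreservation-1 and 3 fresh libraries. The beta globin genes Hbb-bs and Hbb-bt had 0, 6 and 2 counts each in cryopreservation-2 and 0 in the other 6 libraries. Of the 8 erythroid markers in the table, 4 were read only in cryopreservation-2, 1 only in cryopreservation-1 and 1 only in fresh oocytes. Of the 10 macrophage and leukocyte markers in the table, 7 (Adgre1, C1qa, C1qc, Cd14, Lyz2, Ptprc and Tyrobp) were read only in cryopreservation-2. These 7 had 30, 82 and 0 counts in all over its 3 libraries. None of the 10 was read only in cryopreservation-1 or only in fresh oocytes. The largest of the 7 was C1qc, a subunit of complement C1q that macrophages make, with 13, 46 and 0 counts. How many of all genes were read in only 1 group was not counted, so these marker counts have no background to be read against. Red blood cells are rich in iron and macrophages in ferritin, and the part of RNA from such cells in the results for Ftl1 and Hmox1 was not tested.

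Levels are given below as the authors' FPKM (fragments scaled to transcript length and to library size). No source used here gives the length behind each gene's FPKM, and the longest coding transcripts do not account for it. In fresh replicate 1, Ncoa4 had 53364 counts for 63.0 FPKM and Pcbp1 had 17294 counts for 104 FPKM. Their longest coding transcripts have 4065 and 1830 bases. Ranks of different genes and sizes of ratios between genes therefore depend on the lengths used. Differences between groups are log2 fold changes from edgeR's quasi-likelihood test on the deposited counts, with their standard error (SE), and a gene was called at a Benjamini-Hochberg adjusted p under 0.05 over 17545 genes. The question is whether genes that handle iron differ between oocytes frozen with the iron oxide particles, oocytes frozen without them and unfrozen ones.

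The ferritin light chain mRNA stood apart in cryopreservation-2. Ftl1 (ENSMUSG00000050708, chromosome 7, 45457944 to 45459884, minus strand, GRCm38) had 38.6, 59.6 and 35.7 FPKM in the cryopreservation-2 libraries, 15.8, 23.4 and 16.3 FPKM in cryopreservation-1 and 7.79, 15.4 and 14.7 FPKM in fresh oocytes. All 3 cryopreservation-2 libraries lay above all 6 of the others, and in FPKM the lowest cryopreservation-1 library (15.8) lay just above the highest fresh one (15.4), though these 2 groups overlapped in scaled CPM. Against fresh oocytes Ftl1 rose 3.18-fold in cryopreservation-2 (log2 fold change 1.67, SE 0.34, 95% interval 0.91 to 2.43, edgeR adjusted p = 0.0245). Against cryopreservation-1 the log2 fold change was 1.20 (SE 0.34, 95% interval 0.45 to 1.95), which did not pass in edgeR (adjusted p = 0.0846). The same comparison passed in DESeq2 (adjusted p = 0.00838) and in limma on log2(FPKM + 1) (adjusted p = 0.0205). Cryopreservation-1 against fresh gave a log2 fold change of 0.47 (SE 0.34, 95% interval -0.28 to 1.21, edgeR adjusted p = 1). In each of the 3 same-numbered pairs the cryopreservation-1 library was higher than the fresh one, and with the replicate number as a block the log2 fold change was 0.50, which did not pass either (edgeR adjusted p = 1, or 0.727 with these 2 groups alone). The 4 globin genes read only in cryopreservation-2 summed to 34, 30 and 13 counts in its libraries. The 7 macrophage and leukocyte markers read only there summed to 30, 82 and 0 counts, and Ftl1 had 3115, 4693 and 2988 counts. Marker counts set no limit on the Ftl1 reads that such cells bring, and the part of these cells in the level of Ftl1 was not tested.

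**Figure D1:**
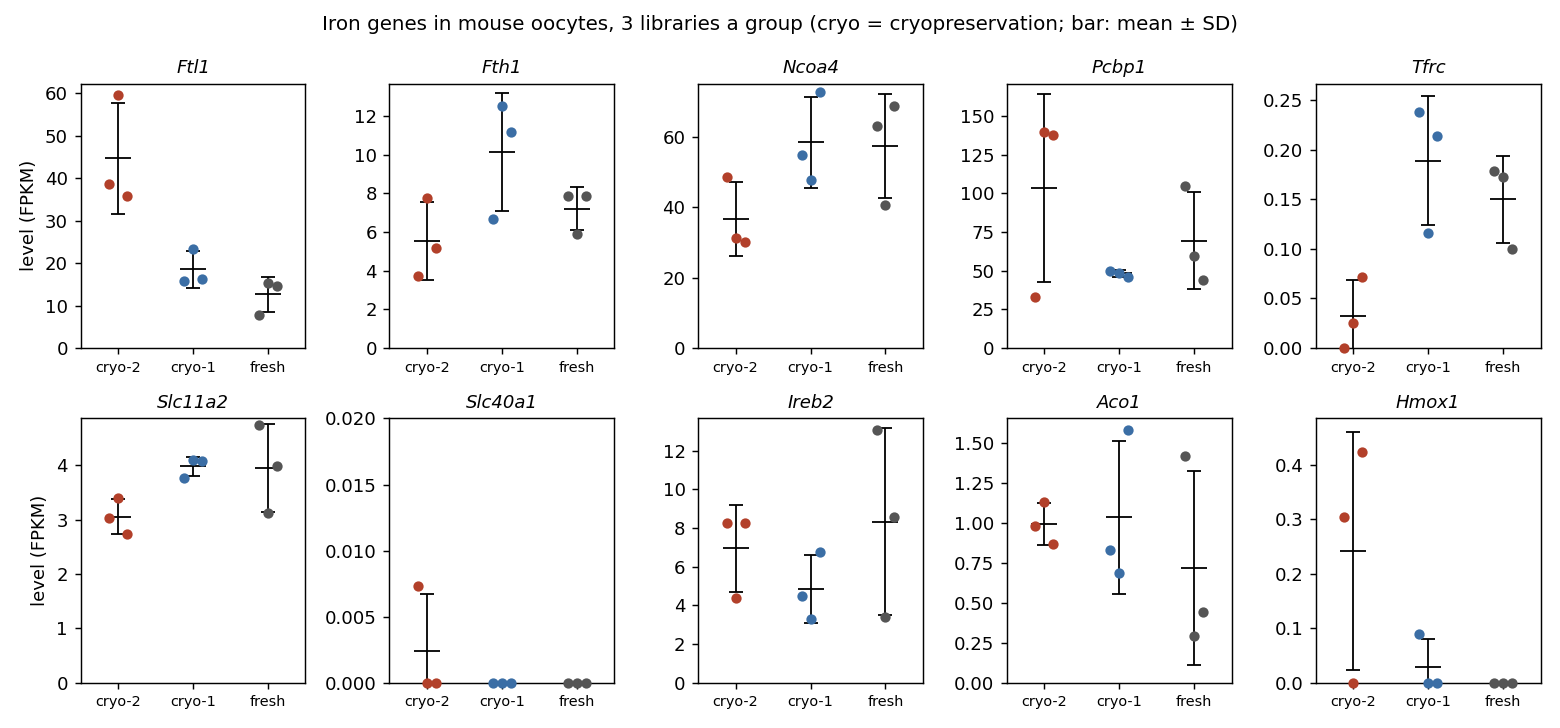
Levels of the 10 iron genes in FPKM (vertical axes, each from 0 on its own scale) in cryopreservation-2, cryopreservation-1 and fresh oocytes. Points are libraries, the long bar is the mean and the whiskers are 1 SD over 3 libraries; Ftl1 in cryopreservation-2 lies between 35.7 and 59.6 FPKM, above the other 6 libraries.

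The call for Ftl1 in cryopreservation-2 against fresh depended on single libraries. It was lost without cryopreservation-2 replicate 2, the library with the highest Ftl1 level (log2 fold change 1.43, edgeR adjusted p = 0.0728). It was also lost without fresh replicate 1, the library with the lowest level (1.39, edgeR adjusted p = 0.0590), and without fresh replicate 3 (1.77, edgeR adjusted p = 0.0686). Without the library of each group with the most genes at 0 counts, an alternative added after seeing the data, the log2 fold change was 1.93 (edgeR adjusted p = 0.0820). With only the 2 groups in the fit it was 1.74 (edgeR adjusted p = 0.0525). Over 20 alternatives the log2 fold change lay between 1.32 and 1.93 and the adjusted p between 0.000106 and 0.0820. The value of 1.32 came with an offset for GC content and transcript length (edgeR adjusted p = 0.0562), and Ftl1 is a short transcript of 968 bases with 58.1% GC.

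The heavy chain gene passed the test in no comparison. Fth1 (ENSMUSG00000024661, chromosome 19, 9980598 to 9985092, plus strand) had 3.75, 7.75 and 5.15 FPKM in cryopreservation-2, 6.70, 12.5 and 11.2 FPKM in cryopreservation-1 and 7.88, 5.92 and 7.86 FPKM in fresh oocytes. The lowest value was in cryopreservation-2 replicate 1, and the ranges of all 3 groups overlapped. Its log2 fold change was -0.52 in cryopreservation-2 against fresh (SE 0.31, 95% interval -1.19 to 0.16, edgeR adjusted p = 0.372) and 0.43 in cryopreservation-1 against fresh (SE 0.31, 95% interval -0.25 to 1.11, edgeR adjusted p = 1). Between the methods it was -0.94 (SE 0.31, 95% interval -1.63 to -0.26), with an unadjusted p of 0.0114 and an edgeR adjusted p of 0.124.

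The balance of the chains within a library does not depend on how libraries are scaled, though its size depends on the lengths behind the FPKM. The ratio of Ftl1 to Fth1 in FPKM was 10.3, 7.69 and 6.94 in cryopreservation-2, 2.36, 1.87 and 1.46 in cryopreservation-1 and 0.989, 2.60 and 1.87 in fresh oocytes. Every cryopreservation-2 library had a higher ratio than every other library, and the other 2 groups overlapped. On the log2 scale the ratio averaged 3.03 ± 0.30 in cryopreservation-2, 0.89 ± 0.35 in cryopreservation-1 and 0.75 ± 0.71 in fresh oocytes (SD, n = 3 each). The difference in mean log2 ratio was 2.28 for cryopreservation-2 against fresh, or 4.86-fold, and 2.14 for cryopreservation-2 against cryopreservation-1, or 4.41-fold (two-sided exact permutation p = 0.1 for each, the smallest that 3 against 3 libraries allow, and 0.2 after Benjamini-Hochberg adjustment over 6 ratio tests). For cryopreservation-1 against fresh it was 0.14 (exact permutation p = 0.8).

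**Figure D2:**
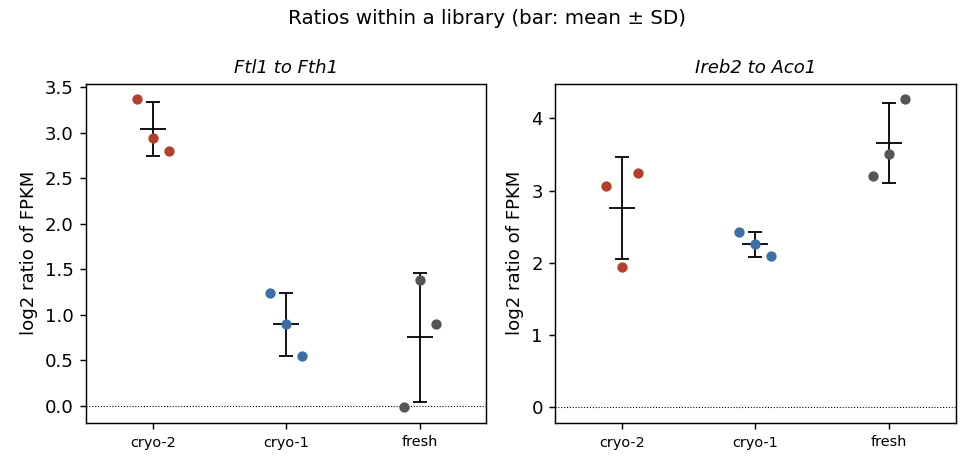
Ratio of Ftl1 to Fth1 and of Ireb2 to Aco1 within each library, on a log2 scale of FPKM ratios, in cryopreservation-2, cryopreservation-1 and fresh oocytes. Points are libraries, with the mean and 1 SD over 3 libraries; the mean log2 ratio of Ftl1 to Fth1 is 3.03 in cryopreservation-2, against 0.89 in cryopreservation-1 and 0.75 in fresh oocytes.

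Reads of the ferritin genes can be shared with processed copies of them. Of 15 ferritin copies listed, 6 were in the table, and only Ftl1-ps1 and Ftl2-ps reached 10 counts in any library. Ftl1-ps1 had 148, 173 and 98 counts in cryopreservation-2, 100, 78 and 138 in cryopreservation-1 and 140, 74 and 122 in fresh oocytes, while Ftl1 itself had 3115, 4693 and 2988 counts in cryopreservation-2 and 946, 1839 and 1647 in fresh oocytes. Ftl2-ps had 39, 58 and 48 counts in cryopreservation-2, 18, 29 and 24 in cryopreservation-1 and 33, 23 and 35 in fresh oocytes. With the counts of the listed copies summed in, the log2 fold change of Ftl1 in cryopreservation-2 against fresh was 1.61 (edgeR adjusted p = 0.0224).

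By mean FPKM, the cargo receptor for the breakdown of ferritin and the chaperone that fills it were the 2 most abundant members in fresh oocytes. Ncoa4 (ENSMUSG00000056234, chromosome 14, 32159865 to 32179855, plus strand) had 48.7, 31.2 and 30.0 FPKM in cryopreservation-2, 54.9, 47.6 and 72.8 FPKM in cryopreservation-1 and 63.0, 40.7 and 68.8 FPKM in fresh oocytes. Cryopreservation-2 replicates 2 and 3 lay below all other libraries, and replicate 1 lay inside the ranges of the other groups. The log2 fold change of Ncoa4 was -0.76 against fresh (SE 0.27, 95% interval -1.37 to -0.15, unadjusted p = 0.0198, edgeR adjusted p = 0.139) and -0.72 against cryopreservation-1 (SE 0.27, edgeR adjusted p = 0.182). In cryopreservation-1 against fresh it was -0.034 (SE 0.27, 95% interval -0.64 to 0.57, edgeR adjusted p = 1).

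Pcbp1 (ENSMUSG00000051695, chromosome 6, 86524492 to 86526321, minus strand) had 33.0, 139 and 138 FPKM in cryopreservation-2, 50.1, 48.7 and 46.0 FPKM in cryopreservation-1 and 104, 59.8 and 44.2 FPKM in fresh oocytes. Cryopreservation-2 replicate 1 was the lowest of all 9 libraries and the other 2 of its group were the highest, so the groups overlapped. The log2 fold change was 0.43 in cryopreservation-2 against fresh (SE 0.45, 95% interval -0.57 to 1.42, edgeR adjusted p = 0.657) and 1.00 against cryopreservation-1 (SE 0.45, edgeR adjusted p = 0.264). Without cryopreservation-2 replicate 1, the comparison with cryopreservation-1 gave 1.48 and passed (edgeR adjusted p = 0.0449). Cryopreservation-1 against fresh gave -0.58 (SE 0.45, 95% interval -1.57 to 0.42, edgeR adjusted p = 1). An antisense neighbour of Pcbp1, 1600020E01Rik, had 0 to 43 counts.

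The transferrin receptor mRNA was scarce in all oocytes and had its lowest counts in cryopreservation-2. Tfrc (ENSMUSG00000022797, chromosome 16, 32608920 to 32632794, plus strand) had 0, 10 and 29 counts in cryopreservation-2, 133, 65 and 94 in cryopreservation-1 and 102, 97 and 53 in fresh oocytes, or 0, 0.0251 and 0.0717 FPKM in cryopreservation-2, 0.237, 0.116 and 0.214 FPKM in cryopreservation-1 and 0.178, 0.173 and 0.0996 FPKM in fresh oocytes. No cryopreservation-2 library reached the lowest of the other 6. At these counts the spread was wide: the log2 fold change was -2.34 against fresh (SE 1.12, 95% interval -4.83 to 0.15, edgeR adjusted p = 0.260) and -2.60 against cryopreservation-1 (SE 1.13, 95% interval -5.11 to -0.087, unadjusted p = 0.0438, edgeR adjusted p = 0.246). The size rested on single libraries: against fresh the log2 fold change was -1.71 without cryopreservation-2 replicate 1, the library at 0, and -3.56 without replicate 3, and against cryopreservation-1 it was -1.95 and -3.80 without the same libraries. Cryopreservation-1 against fresh gave 0.26 (SE 1.06, 95% interval -2.09 to 2.60, edgeR adjusted p = 1). The cryopreservation-2 libraries were also the smallest, and the part of depth in the counts of Tfrc was not tested beyond the scaling to library size.

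DMT1, which moves iron out of the endosome, was read in every library and passed the test in no comparison. Slc11a2 (ENSMUSG00000023030, chromosome 15, 100387898 to 100424092, minus strand) had 3.03, 3.40 and 2.75 FPKM in cryopreservation-2, 3.77, 4.09 and 4.07 FPKM in cryopreservation-1 and 4.74, 3.12 and 3.99 FPKM in fresh oocytes. In FPKM the cryopreservation-2 libraries lay below all those of cryopreservation-1 and overlapped with fresh replicate 2, whereas in CPM scaled by TMM (trimmed mean of M values) they lay below both groups, at 22.2, 23.2 and 18.2 CPM against 33.8, 25.4 and 30.0 CPM in fresh oocytes. The log2 fold change was -0.49 against fresh (SE 0.21, 95% interval -0.96 to -0.021, unadjusted p = 0.0422, edgeR adjusted p = 0.210) and -0.45 against cryopreservation-1 (SE 0.21, edgeR adjusted p = 0.288). For cryopreservation-1 against fresh, the interval ran from -0.51 to 0.42 around -0.044 (edgeR adjusted p = 1). Gm5475, a gene on the opposite strand that overlaps Slc11a2, had 208 to 923 counts, and no source used here gives the strand setting of the counting, so reads of the pair cannot be told apart.

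Ferroportin, the exporter, was all but unread. Slc40a1 (ENSMUSG00000025993, chromosome 1, 45908068 to 45926523, minus strand) had 4, 0 and 0 counts in cryopreservation-2, and 0 in all 3 libraries of cryopreservation-1 and in all 3 of fresh oocytes. A limit of 3 counts over the group was taken for a group at 0. Scaled to total counts, cryopreservation-2 stood at 2.06-fold that limit in fresh oocytes and at 1.98-fold that limit in cryopreservation-1. The 4 counts were taken as exact here, so these folds are not lower limits and no difference is shown. All 4 reads came from 1 library, replicate 1, and at these counts no test across libraries was made.

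The 2 RNA-binding sensors varied between libraries of the same group. Ireb2 (ENSMUSG00000032293, chromosome 9, 54863789 to 54912530, plus strand) encodes the sensor that is degraded when iron is plentiful, and had 8.25, 4.37 and 8.27 FPKM in cryopreservation-2, 4.49, 3.30 and 6.74 FPKM in cryopreservation-1 and 13.1, 3.39 and 8.56 FPKM in fresh oocytes. The fresh libraries spanned the values of both frozen groups except for the 3.30 FPKM of cryopreservation-1 replicate 2. Its log2 fold change was -0.35 in cryopreservation-2 against fresh (SE 0.43, 95% interval -1.31 to 0.61, edgeR adjusted p = 0.714), -0.82 in cryopreservation-1 against fresh (SE 0.44, 95% interval -1.78 to 0.15, edgeR adjusted p = 1) and 0.47 between the methods (SE 0.43, edgeR adjusted p = 0.657).

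Aco1 (ENSMUSG00000028405, chromosome 4, 40143081 to 40198338, plus strand) encodes the cytosolic aconitase that becomes an RNA-binding protein once it loses its iron-sulfur cluster. It had 0.985, 1.13 and 0.868 FPKM in cryopreservation-2, 0.835, 0.691 and 1.58 FPKM in cryopreservation-1 and 1.42, 0.297 and 0.444 FPKM in fresh oocytes. The fresh libraries held both the lowest values and 1 of the highest, and the groups overlapped. The log2 fold change was 0.38 in cryopreservation-2 against fresh (SE 0.54, edgeR adjusted p = 0.758), 0.49 in cryopreservation-1 against fresh (SE 0.54, edgeR adjusted p = 1) and -0.11 between the methods (SE 0.54, edgeR adjusted p = 0.957). Without fresh replicate 1, the highest of its group, the log2 fold change was 1.25 in cryopreservation-2 against fresh (edgeR adjusted p = 0.186) and 1.37 in cryopreservation-1 against fresh. Among the fits that leave out 1 library, the lowest values were 0.037 for cryopreservation-2 against fresh, without fresh replicate 2, and 0.074 for cryopreservation-1 against fresh, without cryopreservation-1 replicate 3.

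Ireb2 exceeded Aco1 in every library. In FPKM, the ratio of Ireb2 to Aco1 was 8.37, 3.86 and 9.52 in cryopreservation-2, 5.38, 4.78 and 4.26 in cryopreservation-1 and 9.20, 11.4 and 19.3 in fresh oocytes. All cryopreservation-1 libraries had a lower ratio than all fresh ones, with a difference in mean log2 ratio of -1.40, or 0.378-fold (two-sided exact permutation p = 0.1, adjusted 0.2). Cryopreservation-2 against fresh gave -0.91 (exact permutation p = 0.2, adjusted 0.3) and cryopreservation-2 against cryopreservation-1 gave 0.50 (exact permutation p = 0.4, adjusted 0.48).

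Hmox1, an enzyme known to be induced by heme and by oxidative stress, gave reads in few libraries. Hmox1 (ENSMUSG00000005413, chromosome 8, 75093621 to 75100589, plus strand) had 33, 0 and 47 counts in cryopreservation-2, 15, 0 and 0 in cryopreservation-1 and 0 in all 3 fresh libraries. Reads were thus found in 2 libraries of cryopreservation-2 and 1 of cryopreservation-1, and each frozen group also had a library at 0. Hmox1 thus passed the filter on low counts through its frozen libraries alone. For fresh oocytes, 3 counts over the group were taken as the limit. Summed over libraries and scaled to total counts, cryopreservation-2 with 80 counts stood at 41.2-fold that limit and cryopreservation-1 with 15 counts at 5.20-fold. Counts of the frozen groups were taken as exact here, so these folds are not lower limits. The test across libraries did not pass in cryopreservation-2 against fresh (unadjusted p = 0.0275, edgeR adjusted p = 0.166), in cryopreservation-1 against fresh (edgeR adjusted p = 1) or between the methods (edgeR adjusted p = 0.602). The 7 macrophage and leukocyte markers read only in cryopreservation-2 summed to 30, 82 and 0 counts in the libraries where Hmox1 had 33, 0 and 47, and the 4 globin genes to 34, 30 and 13; their part in the reads of Hmox1 was not tested.

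Within fresh oocytes the members ran, by mean FPKM, from Pcbp1 (69.5 ± 31.3) and Ncoa4 (57.5 ± 14.8) through Ftl1 (12.6 ± 4.19), Ireb2 (8.33 ± 4.84), Fth1 (7.22 ± 1.13) and Slc11a2 (3.95 ± 0.810) to Aco1 (0.720 ± 0.610) and Tfrc (0.150 ± 0.0438), with Hmox1 and Slc40a1 listed at 0 (SD, n = 3). The ranges of Pcbp1 and Ncoa4 overlapped, and so did those of Ftl1, Ireb2 and Fth1. In cryopreservation-2, Ftl1 (44.7 ± 13.0) lay between Pcbp1 (103 ± 60.9) and Ncoa4 (36.7 ± 10.4), and these 3 overlapped. In cryopreservation-1, Ncoa4 (58.4 ± 13.0) and Pcbp1 (48.3 ± 2.10) overlapped above Ftl1 (18.5 ± 4.27). Ranks of mean FPKM were taken among genes above 0 FPKM in the group, 22695 in cryopreservation-2, 22785 in cryopreservation-1 and 22055 in fresh oocytes. Ftl1 lay above 95.6% of these genes in cryopreservation-2, 91.0% in cryopreservation-1 and 88.3% in fresh oocytes. Fth1 lay above 80.1% of them in cryopreservation-2, 86.5% in cryopreservation-1 and 83.6% in fresh oocytes. Tfrc lay above 18.1% in cryopreservation-2, 40.5% in cryopreservation-1 and 36.4% in fresh oocytes.

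Of the 9 members tested, 1 was called higher and 0 lower in cryopreservation-2 against fresh, where 5.38% of all 17545 genes were called, 3.18% as higher and 2.20% as lower. DESeq2 and limma on log2(FPKM + 1) each called 1 member, Ftl1, against 15.1% and 18.9% of the genes they tested. Hmox1, which was tested only because of its frozen libraries, is left out of the next count: of the 8 members read in every group, 3 (Ftl1, Ncoa4 and Slc11a2) had an unadjusted p under 0.05, against 21.8% of all genes. By scaled CPM, groups did not overlap for 3 of 9 members (Ftl1 higher, Tfrc and Slc11a2 lower), against 27.5% of all genes. The median log2 fold change was -0.42 over the 8 members read in every group and -0.055 over all genes.

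In cryopreservation-1 against fresh, 0 of 9 members and 0% of all genes were called by edgeR, 0 of 9 members had an unadjusted p under 0.05 against 4.72% of all genes, and DESeq2 and limma called 0 members too, against 0.363% and 0% of the genes they tested. By scaled CPM, groups overlapped for all 9 members, while they did not overlap for 10.1% of all genes. The median log2 fold change was 0.11 over the 8 members read in every group and 0.024 over all genes. In cryopreservation-2 against cryopreservation-1, edgeR called 0 of 9 members, against 2.75% of all genes (1.50% as higher and 1.25% as lower). There, 4 of 9 members (Ftl1, Fth1, Ncoa4 and Tfrc) had an unadjusted p under 0.05, against 18.9% of all genes, and DESeq2 and limma on log2(FPKM + 1) each called 1, Ftl1, against 12.1% and 14.2% of the genes they tested. The groups did not overlap for 3 members (Ftl1 higher, Tfrc and Slc11a2 lower), against 29.0% of all genes. The comparisons share libraries: fresh oocytes stand in both comparisons with a frozen group.

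**Figure D3:**
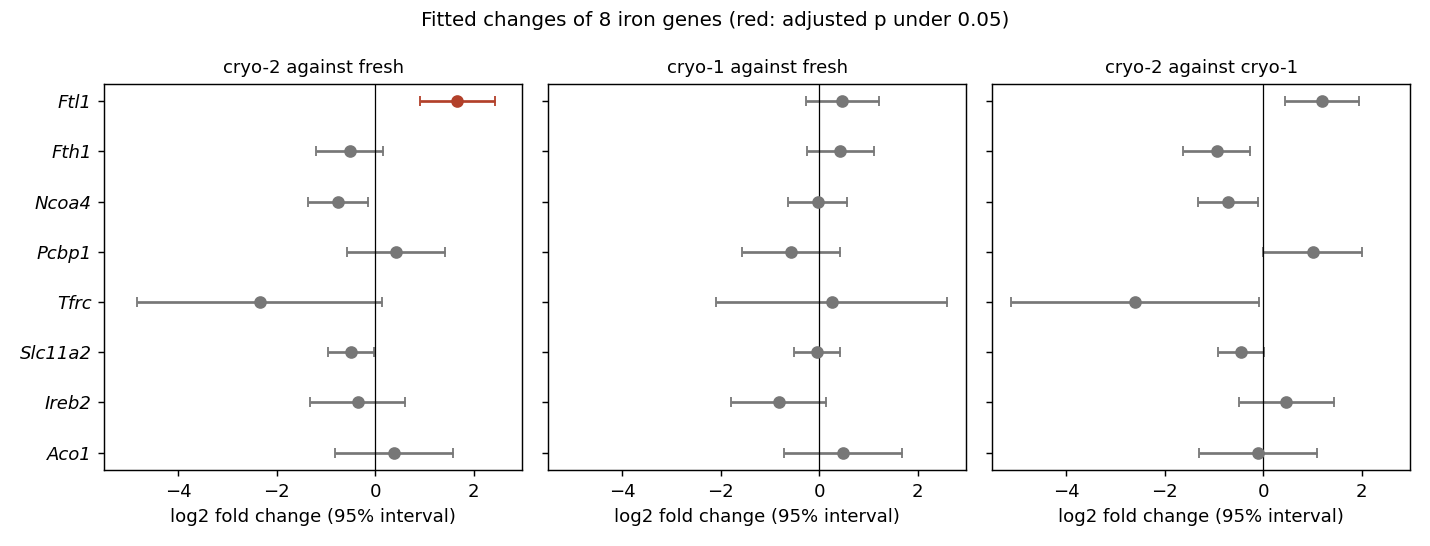
Log2 fold changes of 8 iron genes (horizontal axis, point) with their 95% intervals (line) from edgeR in cryopreservation-2 against fresh, cryopreservation-1 against fresh and cryopreservation-2 against cryopreservation-1. Ftl1 in cryopreservation-2 against fresh, at 1.67, is the 1 value with an adjusted p under 0.05 (red); Hmox1 and Slc40a1 are not drawn because groups were at 0.

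Other genes of iron and heme handling were followed in 6 lists from general knowledge, with 84 genes tested. In cryopreservation-2 against fresh, 4 of the 84 were called higher and 3 lower, against 3.18% and 2.20% of all genes, and 28 had an unadjusted p under 0.05, against 21.8%. The median log2 fold change of the 84 was 0.14. Among the 28 are Pcbp4, at 0 in fresh oocytes, and Tfr2, at 0 in cryopreservation-2 (edgeR unadjusted p = 0.0149 and 0.0450). Slc39a8 is among them too (edgeR unadjusted p = 0.0209), with 0.767, 0.474 and 12.3 CPM in cryopreservation-2. Tfr2 and Slc39a8 belong to the list of iron uptake, reduction and export. No gene was called among 6 of iron uptake, reduction and export (median -0.51, 3 at an unadjusted p under 0.05), 12 of iron sensing, hepcidin control and iron chaperones (median 0.35, 3), 13 of heme synthesis (median 0.16, 4) and 11 of heme transport and breakdown (median -0.33, 2). All 7 called genes were among the 26 of iron-sulfur clusters and mitochondrial iron and the 16 of ferroptosis and cystine import. In cryopreservation-1 against fresh, 0 of 84 were called by edgeR and 1 by DESeq2, against 0.363% of the genes it tested. By edgeR, 3 had an unadjusted p under 0.05 there, against 4.72% of all genes, and Pcbp4, at 0 in fresh oocytes, is among them. In cryopreservation-2 against cryopreservation-1, 0 were called by edgeR, against 2.75% of all genes, and 25 had an unadjusted p under 0.05, against 18.9%. DESeq2 called 14 of them and limma on log2(FPKM + 1) called 9, against 12.1% and 14.2% of the genes they tested.

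Among genes of iron-sulfur clusters and mitochondrial iron, 3 were called higher and 1 lower in cryopreservation-2 against fresh, with a median log2 fold change of 0.18. Glrx5, a mitochondrial glutaredoxin that hands on iron-sulfur clusters, had 49.6, 57.1 and 39.1 CPM in cryopreservation-2, 20.3, 24.9 and 14.4 CPM in cryopreservation-1 and 12.7, 19.6 and 10.04 CPM in fresh oocytes. It rose 3.44-fold against fresh (log2 fold change 1.78, SE 0.32, edgeR adjusted p = 0.0150), and no other library reached the level of a cryopreservation-2 library. Nfu1, a scaffold protein for mitochondrial iron-sulfur clusters, had 139, 141 and 125 CPM in cryopreservation-2, 55.0, 107 and 86.3 CPM in cryopreservation-1 and 56.8, 63.9 and 57.4 CPM in fresh oocytes, and rose 2.27-fold (log2 fold change 1.18, SE 0.24, edgeR adjusted p = 0.0238). Cisd1 and Cisd2 encode related iron-sulfur proteins of the outer mitochondrial membrane and of the endoplasmic reticulum, and they were called in opposite directions. Cisd1 had 29.1, 38.7 and 33.5 CPM in cryopreservation-2, 16.1, 19.2 and 9.19 CPM in cryopreservation-1 and 10.9, 14.7 and 5.95 CPM in fresh oocytes (log2 fold change 1.68, SE 0.37, edgeR adjusted p = 0.0324). Cisd2 had 26.2, 24.3 and 27.0 CPM in cryopreservation-2, 42.8, 45.3 and 47.9 CPM in cryopreservation-1 and 47.6, 58.8 and 40.8 CPM in fresh oocytes (log2 fold change -0.92, SE 0.20, edgeR adjusted p = 0.0310).

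Among genes of ferroptosis, the iron-dependent form of cell death by lipid peroxidation, and of cystine import, 1 was called higher and 2 lower, with a median log2 fold change of 0.14. Alox12, a lipoxygenase, had 11.9, 9.52 and 12.6 CPM in cryopreservation-2, 10.8, 13.8 and 11.6 CPM in cryopreservation-1 and 4.76, 5.71 and 5.67 CPM in fresh oocytes. All 6 frozen libraries lay above the 3 fresh ones. Its log2 fold change against fresh was 1.08 in cryopreservation-2 (SE 0.25, edgeR adjusted p = 0.0391) and 1.16 in cryopreservation-1 (SE 0.25), where it passed in DESeq2 (adjusted p = 0.000360) and not in edgeR (adjusted p = 1). Dhodh, a mitochondrial enzyme of pyrimidine synthesis that passes electrons to ubiquinone, had 67.9, 95.9 and 87.6 CPM in cryopreservation-2, 157, 131 and 141 CPM in cryopreservation-1 and 140, 133 and 173 CPM in fresh oocytes (log2 fold change -0.83, SE 0.20, edgeR adjusted p = 0.0419). Slc3a2, the heavy chain of the cystine and glutamate exchanger, had 333, 422 and 423 CPM in cryopreservation-2, 664, 585 and 598 CPM in cryopreservation-1 and 528, 836 and 705 CPM in fresh oocytes (log2 fold change -0.81, SE 0.21, edgeR adjusted p = 0.0484). In both of these genes, each cryopreservation-2 library lay below all 6 others.

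All 7 calls in cryopreservation-2 against fresh were lost when at least 1 library was left out. Glrx5 lost its call without fresh replicate 1 or 3, with an edgeR adjusted p of up to 0.0573. Nfu1 lost it in 5 of 9 such fits (without any fresh replicate, or cryopreservation-2 replicate 2 or 3; edgeR adjusted p up to 0.0837), and Cisd1 in 5 of 9 (without fresh replicate 1 or 3, cryopreservation-1 replicate 1, or cryopreservation-2 replicate 2 or 3; edgeR adjusted p up to 0.0906). Cisd2 kept it only without cryopreservation-1 replicate 3 (edgeR adjusted p up to 0.0990) and Slc3a2 only without fresh replicate 1 (edgeR adjusted p up to 0.126). Alox12 and Dhodh lost it in 9 of 9 such fits (edgeR adjusted p up to 0.118 and 0.138). Over these fits the log2 fold change ran from 1.59 to 2.09 for Glrx5, 1.15 to 1.25 for Nfu1, 1.40 to 2.0 for Cisd1 and 0.995 to 1.20 for Alox12. It ran from -1.04 to -0.77 for Cisd2, -0.92 to -0.65 for Dhodh and -0.97 to -0.65 for Slc3a2.

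Other settings ended calls as well. Of 10 other fits (by edgeR, DESeq2 or limma), Dhodh lost its call in 7 (adjusted p up to 0.198), Slc3a2 in 6 (up to 0.210), Alox12 in 4 (up to 0.0952) and Cisd2 in 4 (up to 0.0893). Glrx5 and Nfu1 each lost it in 1, the fit without the library of each group with the most genes at 0 counts (edgeR adjusted p 0.0588 and 0.0992), and Cisd1 in 0 (up to 0.0497).

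**Figure D4:**
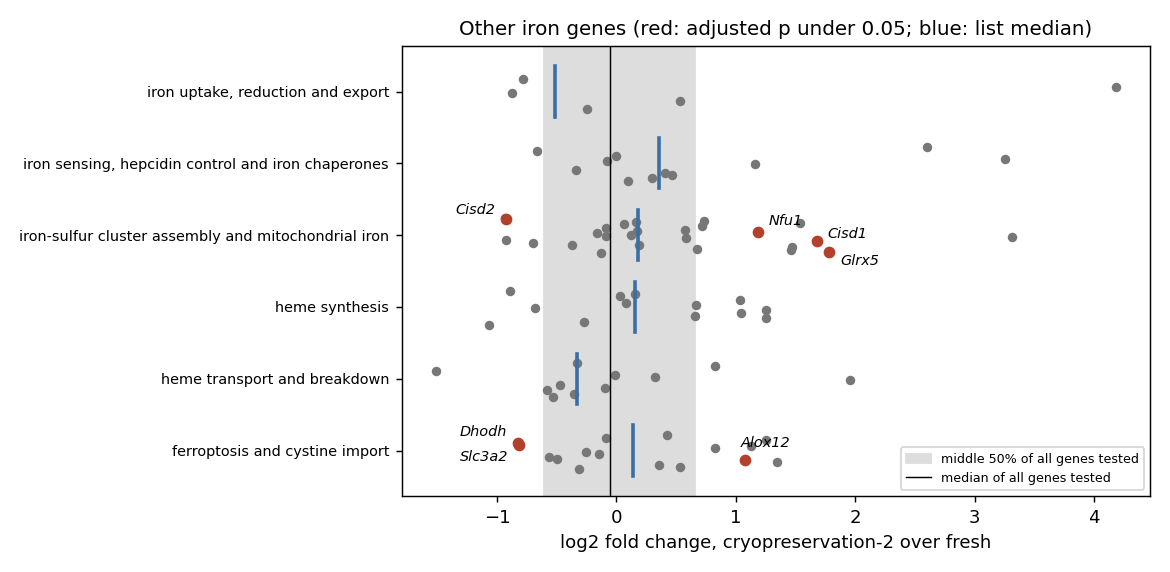
Log2 fold changes of other iron and heme genes in cryopreservation-2 over fresh oocytes (horizontal axis) by gene list (vertical axis); each point is a gene. Red points are the 7 genes called, 4 of them higher and 3 lower, blue bars are list medians from -0.51 to 0.35, the grey band is the middle 50% of all genes tested and 2 genes with a group at 0 are not drawn.

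As a description of which genes shared the pattern of Ftl1 over the 9 libraries, Pearson's r of log2(CPM + 1) was taken with 6427 genes of at least 10 CPM on average. The 5 highest were Gm8930 (r = 0.985), Gm2694 (0.983), Pigyl (0.976), Aurkb (0.972), the kinase of the chromosomal passenger complex, and Elp5 (0.970), a subunit of Elongator. In all, 114 genes had an r over 0.9. The points share the difference between cryopreservation-2 and the rest as well as library depth, so no p is given. Ftl1 averaged 65.0 CPM in cryopreservation-2, 28.3 CPM in cryopreservation-1 and 20.5 CPM in fresh oocytes. Pigyl averaged 63.1 CPM in cryopreservation-2, 22.6 CPM in cryopreservation-1 and 16.2 CPM in fresh oocytes.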

How the data were processed

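The authors deposited, for each of 9 libraries, raw counts per gene, which are whole numbers and not normalized, and FPKM, scaled by them per transcript length and per library. Per the labels' protocols, RNA was extracted with Trizol, poly(A) RNA was selected on oligo(dT), and strand-marked (dUTP) libraries were amplified by PCR without molecular identifiers in the protocol. The submitters' processing notes name cutadapt 1.9, HISAT2 2.0.4, StringTie 1.3.4d and GRCm38; no source used here gives the counting tool, its strand setting or the annotation release.

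Groups came from the treatment labels. Total counts lay between 49337232 and 80877288, which sets the precision of low genes. Counts were filtered by filterByExpr (minimum count 10, minimum total 15) and scaled by TMM, and all 9 libraries entered 1 edgeR quasi-likelihood fit (R 4.3.3, edgeR 4.0.16), tested on simulated data first. P-values were adjusted by Benjamini-Hochberg over 17545 genes within each comparison. Ratios of FPKM were compared by exact permutation over libraries. Alternatives used DESeq2 1.42.0, limma 3.58.1 on log2(FPKM + 1) or log2(FPKM + 0.1) with a mean of at least 1 FPKM, offsets for GC content and length (mgcv 1.9.3), other scaling, no filter, a replicate block, the 2 groups alone and each library left out.

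Members and gene lists were chosen with earlier results of these data known. Named are all members, other iron genes called in a comparison (at most 5 a list), ferritin copies with at least 10 counts and the 5 genes most alike to a called member. Replicate numbers come from the titles. Over 8091 genes, deviations of same-numbered libraries from their group means correlated at 0.271, 0.364 and 0.439 between cryopreservation-1 and fresh, so the numbers were taken to pair those libraries, but not those of the other comparisons.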

Additional observations from a re-analysis of the deposited data

How the results depend on the processing

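Slc40a1, Hmox1 and Tfrc had under 150 counts in every library, which limits the precision of their values. Each alternative was also run on the members and the 7 other iron genes named, 764 values in all: 648 kept their direction and side of the threshold, 75 lost a call, 21 gained one and 20 changed sign.

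In cryopreservation-2 against fresh, the 1 call among the members went to 0 with the 2 groups alone, with offsets for GC content and length, and without the library of each group with the most genes at 0 counts (an alternative chosen after seeing the data), and was 0 to 1 without single libraries. The 944 genes called became 2701 with DESeq2, 1688 and 1597 with limma at pseudocounts of 1 and 0.1, 429 with the 2 groups alone, 194 without the 3 libraries and 231 to 786 without single libraries. The 7 other iron genes called became 4 with no filter, 19 with DESeq2, 3 with the 2 groups alone, 1 without the 3 libraries and 0 to 5 without single libraries. In cryopreservation-1 against fresh, the 0 genes called became 65 with DESeq2, 1 with the 2 groups alone and 0 to 1 without single libraries, and 1 other iron gene was called with DESeq2. In cryopreservation-2 against cryopreservation-1, the 0 members called became 1 with DESeq2 and 1 with limma at either pseudocount, and 0 to 1 without single libraries. There the 483 genes called became 2108 with DESeq2, 1271, 1077 and 882 with limma (pseudocounts of 1 and 0.1, and 1 with no filter), 825 with GC and length offsets, 0 without the 3 libraries and 15 to 480 without single libraries. The 0 other iron genes called there became 1 with DESeq2 size factors, 14 with DESeq2, 9, 6 and 3 with the same limma settings, 2 with the 2 groups alone, 4 with the offsets and 0 to 1 without single libraries. The cause of these changes was not tested.

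With the replicate block, 500 genes and 3 other iron genes were called in cryopreservation-2 against fresh, and 230 and 2 in cryopreservation-2 against cryopreservation-1. In these comparisons the numbers were not taken to pair libraries (correlations of -0.175, 0.168 and -0.215, and of -0.389, 0.154 and -0.277). Over all 3 groups, only 2 of 9 libraries correlated best with the library of their own number in each other group. In cryopreservation-1 against fresh, where the numbers were taken to pair libraries, the block called 0 genes with all libraries and 1 with the 2 groups alone. There it changed no call of a member. The share of calls that were higher in cryopreservation-2 against fresh was 53.4% with the offsets, 62.8% with DESeq2 size factors and 74.0% with limma, against 59.1% as reported.

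Log2 fold changes that changed sign were all of uncalled genes. Ireb2 in cryopreservation-2 against fresh was 0.042 with the offsets and -0.70 to 0.073 without single libraries. In cryopreservation-1 against fresh, Slc11a2 was 0.021, 0.029 and 0.021 with the 3 limma settings and -0.14 to 0.061 without single libraries, and Ncoa4 was 0.036, 0.037 and 0.036, 0.065 with the offsets, 0.071 with the block and offsets and -0.20 to 0.12. Tfrc (-0.090) and Aco1 (-0.22) changed sign there without the 3 libraries. Aco1 in cryopreservation-2 against cryopreservation-1 was 0.12 with the offsets, 0.40 without the 3 libraries and -0.33 to 0.31 without single libraries. The log2 ratio of Ftl1 to Fth1 in cryopreservation-1 against fresh was -0.24 to 0.45 without single libraries. Tfrc, Aco1 and Hmox1 have no value in limma with a mean of at least 1 FPKM, and Hmox1 has none in cryopreservation-1 against fresh without cryopreservation-1 replicate 1.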
